A study of Mus musculus with 4 samples.

Results

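Igf2, Nap1l4 and Kcnq1 are 3 genes of distal mouse chromosome 7, and the question asked of them was whether an imbalance between their alleles followed the strain of the allele or the parent that passed it on. Every SNP position that the allele counts assign to 1 of these genes was taken, exonic and intronic, which gave 9 positions of 305528 and 3 genes of 11063 with a covered SNP. The positions held 424 reads over all pools, of which Nap1l4 had 238, Igf2 had 177 and Kcnq1 had 9. The BxD female and BxD male pools each covered 7 of the positions, the DxB female pool covered 5 and the DxB male pool covered 4.

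The counts come from RNA of the gonadal fat pad of F1 mice of C57BL/6J (B) and DBA/2J (D), fed chow, named so that the mother's strain comes first. There were 4 pools of RNA, each giving 1 library: BxD female (3 animals), BxD male (3 animals), DxB female (2 animals) and DxB male (3 animals). The mice carry no engineered allele, and every pool holds both parental genomes, so the B allele came from the mother in BxD and from the father in DxB. For 2 pools the sample label and the name of the deposited file give different crosses and sexes, so that the pool called BxD male here is labelled DxB female and the pool called DxB female here is labelled BxD male. File names were followed, because the counts of 1996 genes equalled the raw counts per pool in a supplementary table of the study for 99.9% of genes in each pool, against 1.20% in each of the 2 disputed pools when the labels were followed. Igf2 and Nap1l4 were among the genes compared and matched by file name in all 4 pools. The labels give an age of 8 weeks, and the methods of the study give a later age. With 1 pool for each cross and sex, p-values measure the spread between 4 pools of mixed RNA and not between animals.

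Distal chromosome 7 holds neighbouring imprinted domains. Igf2, a growth factor of the insulin family, is known for expression from the paternal allele in the embryo, together with maternal expression of the adjacent H19 RNA. Kcnq1, a subunit of a voltage-gated potassium channel, lies in the next domain, where a paternally expressed antisense RNA begins inside 1 of its introns and where several genes, Nap1l4 among them, are known for maternal expression mainly in the placenta. Nap1l4 encodes a histone chaperone of the nucleosome assembly protein family. In reciprocal F1 crosses an imprinted allele changes strain when the cross is turned round, whereas an allele favoured by strain stays the same.

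The sequences around the SNPs are given because the result for each gene rests on so few bases, 1 in Igf2, 3 in Nap1l4 and 4 in Kcnq1. Each stretch holds 29 bases of the + strand of mm9 (NCBIM37), with the bases at which the B and D strains are listed as different in capitals. Igf2 (chr7:149838552-149838580, substitution T15G) and Nap1l4 in its first exon (chr7:150734972-150735000, substitutions G14C and T16C) read:
Igf2, B allele: cctcatggcgggggTggttggggagcacc
Igf2, D allele: cctcatggcgggggGggttggggagcacc
Nap1l4 exon, B allele: ctgtcctaagctcGcTccggggctgcacc
Nap1l4 exon, D allele: ctgtcctaagctcCcCccggggctgcacc

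In each substitution the B base is written first and the D base last, and the position is counted from 1 at the 5′ end of the stretch. Nap1l4 in its first intron (chr7:150734812-150734840, G15C) and the SNPs in introns of Kcnq1, called a (chr7:150527022-150527050, T15C), b (chr7:150527061-150527089, T15C), c (chr7:150527102-150527130, T15C) and d (chr7:150562117-150562145, G15A), are shown with the B base only:
Nap1l4 intron: cccggtcgccgcccGcctctgctcgccgc
Kcnq1 a: ccagcaggtcagctTtgcaccctggagca
Kcnq1 b: tgtccctgctggttTtgactgaagcagta
Kcnq1 c: ctgcacaccaagttTtggggacacagctt
Kcnq1 d: tgcctccgctcctgGgtctccctcctcca

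Each of these stretches occurs 1 time in the reference with the B base and 0 times with the D base, on both strands. At 9 of the 9 positions the reference base is the B base. The stretches of Igf2 and Nap1l4 are rich in G and C, with 72.4% at Igf2, 69.0% at the Nap1l4 exon and 86.2% at the Nap1l4 intron, and in all 3 of them the D base joins a run of 1 base. With the D base the longest run grew from 5 to 8 bases at Igf2, from 4 to 6 at the Nap1l4 exon and from 3 to 6 at the Nap1l4 intron, whereas none of the Kcnq1 stretches held a longer run with the D base. Such a gain is rare in this series. Of 19783 exonic SNPs with at least 100 reads and different bases listed, 308 (1.56%) had a longest run at least 2 bases longer with the D base, and their median B share of reads was 58.6% against 51.7% at the 18375 SNPs whose run did not grow. For a gain of at least 3 bases, the median over 77 SNPs was 69.9%. The part of the run in the results for Igf2 and Nap1l4 was not tested.

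Igf2 lies on the - strand at chr7:149836673-149852721 (ENSMUSG00000048583.9, 16049 bp). Its only covered SNP, chr7 position 149838566, lies in the untranslated part of the last exon (149836673 to 149839957), 14.2 kb from the start of the gene, in an exon shared by 4 annotated transcripts. The annotation column of the files calls this SNP intronic and the exon column places it in the same exon as the annotation used here, and by the exon column it was counted as exonic.

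Igf2 was read from both alleles in every pool, with more B than D reads in 4 of 4 pools. The BxD female pool had 55 B and 11 D reads, a B share of 83.3% (95% Wilson interval 72.6 to 90.4%). In the BxD male pool there were 47 B and 8 D reads, or 85.5% B (73.8 to 92.4%). The DxB female pool had 34 B and 2 D reads, or 94.4% B (81.9 to 98.5%), and the DxB male pool had 16 B and 4 D reads, or 80% B (58.4 to 91.9%). The DxB pools gave the highest and the lowest share, so the shares of the crosses overlap, and all 4 intervals lie above 50%. The mean B share was 85.8% ± 6.18 (SD, n = 4), with 84.4% ± 1.5 (SD, n = 2) in BxD and 87.2% ± 10.2 (SD, n = 2) in DxB. Reads were treated as independent in these intervals, which cover counting error only.

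**Figure D1:**
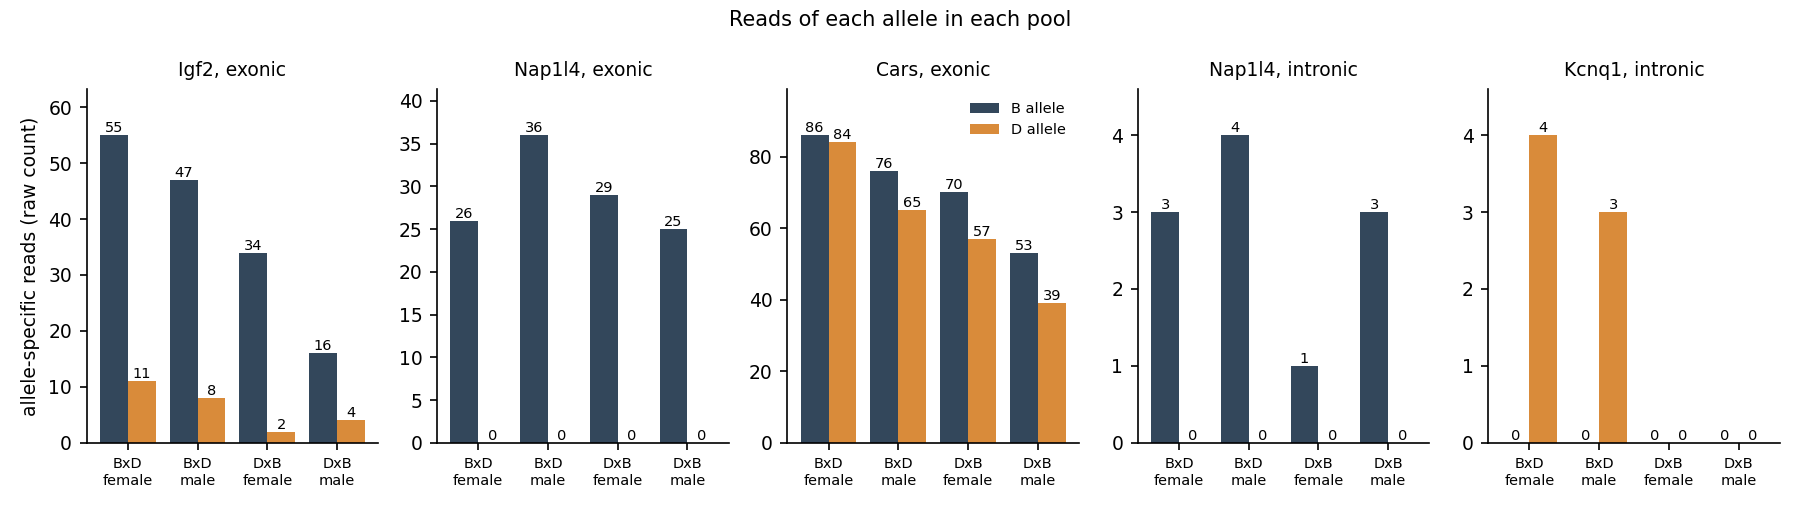
Allele-specific reads (raw counts, vertical axes of different range starting at 0) of the B and the D allele in each of the 4 pools, for the exonic SNPs of Igf2, Nap1l4 and Cars and the intronic SNPs of Nap1l4 and Kcnq1. B reads exceeded D reads in every pool for Igf2, only B reads were found for Nap1l4, and the 7 intronic reads of Kcnq1 were D reads of the BxD pools.

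Turned into parental alleles, the same Igf2 reads changed sides with the cross. The maternal share was 83.3% and 85.5% for the BxD females and males, and 5.56% in the DxB female and 20% in the DxB male pool. Over all pools 108 reads were maternal and 69 paternal, a maternal share of 61.0% (53.7 to 67.9%), which follows the larger number of reads in the BxD pools. With the crosses taken from the labels the split was 101 maternal and 76 paternal reads, or 57.1% maternal.

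Both factors were then fitted across all genes with edgeR's quasi-likelihood test and Benjamini-Hochberg adjustment. In the test of strain, the log2 ratio of D to B for Igf2 was -2.43 ± 0.43 (SE, 95% interval -3.38 to -1.49, adjusted p = 0.00157). Igf2 and Nap1l4 were the 2 members called of 3 tested on exonic SNPs, where 17.7% of the 7990 genes tested were called and 12.9% were called with the B allele higher. With parent of origin in the same fit the strain ratio of Igf2 was -2.42 ± 0.45 (adjusted p = 0.00227), and the log2 ratio of maternal to paternal was 0.06 ± 0.46 with a 95% interval of -0.95 to 1.08 (adjusted p = 0.99995), in a fit that called 0.0876% of genes by parent. That interval stayed around 0 when the labels were followed, at 0.25 ± 0.43 (-0.69 to 1.19). These joint fits held no term for the pool, and most Igf2 reads were B, the maternal allele in BxD and the paternal in DxB. The parental ratio therefore also takes up a difference in depth between the crosses. Its interval is not a bound on parent of origin alone. A fit of pool, strain and parent together was not run. A fit of pool and parent, without strain, gave a parental log2 ratio of -0.06 ± 1.37 (-3.69 to 3.58). No parental effect was detected at Igf2, and the joint fits do not limit its size.

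None of the 3 genes was called by parent of origin with edgeR on exonic SNPs, where 0.0501% of all genes were. By an unadjusted p under 0.05, 0 of the 3 passed in edgeR and 0 in DESeq2, where 44 and 23 of 7990 genes did. The exonic position of Kcnq1 lists the same base for both strains and Nap1l4 had no D read, so only Igf2 could inform on parent of origin. In this fit without strain, the strain difference widens the error, and the parental log2 ratio of Igf2 was 0.49 ± 0.90. The strain ratio of Igf2 in male against female pools differed by 0.43 ± 0.85 on the log2 scale (edgeR interaction, adjusted p = 0.9999), so a difference between the sexes was not detectable. The call of Igf2 by strain was lost when both disputed pools were left out (log2 ratio -2.07 ± 0.59, edgeR adjusted p = 0.0877), with 2 pools remaining.

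**Figure D2:**
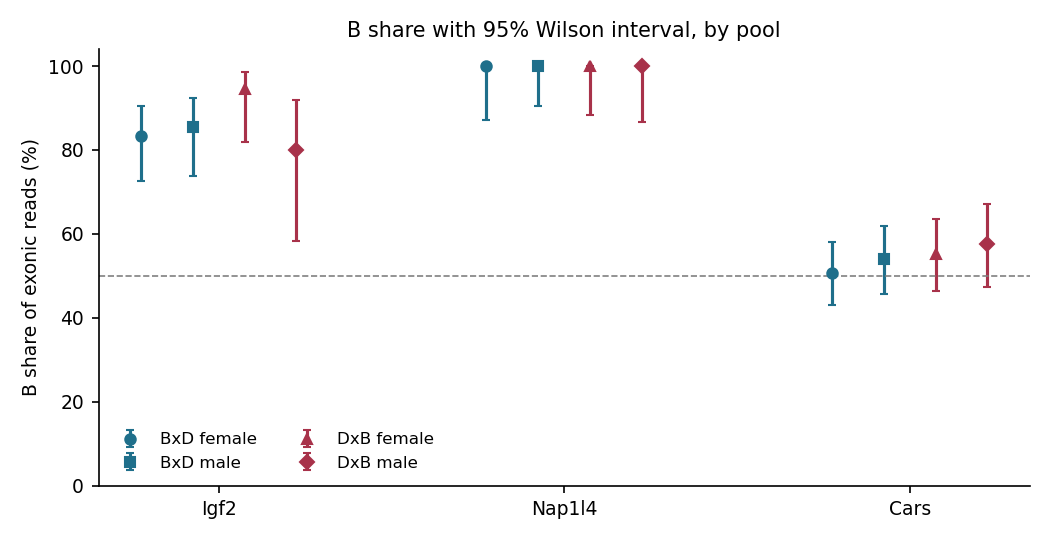
B share of exonic reads (%, vertical axis from 0) in each pool for Igf2, Nap1l4 and Cars, with 95% Wilson intervals as bars, circles and squares for the BxD pools and triangles and diamonds for the DxB pools, and a dashed line at 50%. All Igf2 and Nap1l4 intervals lie above the line in both crosses, while those of Cars cross it.

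The depth at Igf2 was also compared between the crosses. Reads of both Igf2 alleles, scaled to 1000000 counted exonic reads of the pool (RPM), came to 15.5 RPM in the BxD female, 13.2 in the BxD male, 8.75 in the DxB female and 5.96 in the DxB male pool. Both BxD pools lay above both DxB pools, with means of 14.4 ± 1.61 and 7.36 ± 1.97 RPM (SD, n = 2 each). The fitted log2 ratio of BxD to DxB was 0.87 ± 0.32, with an edgeR adjusted p = 0.940, in a comparison where 0.0% of 7990 genes were called and 299 passed an unadjusted p under 0.05. This comparison was chosen after the values were seen, and it rests on the file names: with the crosses of the labels the log2 ratio was 0.23. In tissue RNA, fewer cells that express a gene and less of its RNA per cell cannot be told apart.

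Nap1l4 lies on the - strand at chr7:150699484-150734997 (ENSMUSG00000059119.7, 35514 bp). Its exonic SNPs, chr7 positions 150734985 and 150734987, fall in the 5′ untranslated part of the first exon, 12 and 10 bp from the annotated start of the gene and in 3 annotated transcripts. Because SNPs within 18 bp of a counted one were left out, only the first of this pair was counted. A further SNP, at position 150734826, lies in the first intron, 171 bp from the start of the gene and 121 bp from the exon.

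Only the B base was read at Nap1l4. At the counted SNP the BxD female pool had 26 B reads, the BxD male pool 36, the DxB female pool 29 and the DxB male pool 25, with 0 D reads in each. The neighbouring SNP gave 28, 34, 28 and 21 B reads in the same order and again 0 D reads. Both bases are close enough to be covered by the same reads, so they are not independent. Over all pools 116 B and 0 D reads were counted, and 0 D reads in 116 allow a D share of up to 2.59%, taking 3 reads as the most that a count of 0 allows. In single pools the limits on the D share were 11.5%, 8.33%, 10.3% and 12%.

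By the same 3 reads over all pools, B reads at Nap1l4 were at least 38.7-fold higher than D reads. The maternal share was 100% in both BxD pools and 0.0% in both DxB pools, and the sum was 62 maternal and 54 paternal reads, or 53.4% maternal (44.4 to 62.3%). Nap1l4 was called by strain with edgeR (adjusted p = 3.18e-05), also with the pool as a block (adjusted p = 0.00874), a fit that called 27.2% of all genes. Its log2 ratio of maternal to paternal, with strain in the fit, was -0.05 ± 0.45 (-1.08 to 0.98). With no D read this last value compares the B reads of BxD with those of DxB. Reads of Nap1l4 came to 6.11, 8.66, 7.05 and 7.45 RPM in the BxD female, BxD male, DxB female and DxB male pools (mean 7.32 ± 1.06, SD, n = 4), and the crosses overlap (log2 ratio of BxD to DxB -0.05 ± 0.38, edgeR adjusted p = 0.991).

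The intron of Nap1l4 gave few reads and the same base. The BxD female pool had 3 B reads, the BxD male pool 4, the DxB female pool 1 and the DxB male pool 3, and no pool had a D read. The sum of 11 B and 0 D reads allows a D share of up to 27.3% and puts B at least 3.67-fold higher than D. With edgeR the intronic SNP was called by strain (adjusted p = 0.0231), where 11.3% of 9561 genes with intronic SNPs were called and 7.12% were called with B higher. With the pool as a block, which called 9.2% of these genes, the adjusted p was 0.183, and with DESeq2 it was 0.117.

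Complete absence of D reads was not particular to Nap1l4. Among 5114 genes with at least 100 counted exonic reads, 136 (2.66%) had no D read and 6 (0.117%) had no B read. Of 964 SNPs in 5′ untranslated regions with at least 100 reads, 107 (11.1%) had no D read, against 3.14% of all 19858 exonic SNPs of that depth. Among the 680 of these with another covered SNP within 2 bp, as at Nap1l4, the share without a D read was 5%. Of the 308 SNPs whose longest run was at least 2 bases longer with the D base, as at Nap1l4, 31 (10.1%) had no D read. Where the run did not grow, 509 of 18375 (2.77%) had none. The part of the run in this was not tested. At a SNP with B reads alone, an allele that is not expressed, an allele whose reads do not align and a base that does not differ between the strains cannot be told apart from these counts. The study sequenced DNA of D mice at a subset of its SNPs with B reads alone, some in 5′ untranslated regions. It could verify none of them, since D mice carried the B base. Nap1l4 was not among the SNPs that the study lists as sequenced.

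Kcnq1 lies on the + strand at chr7:150293159-150612955 (ENSMUSG00000009545.7, 319797 bp). No SNP in an annotated exon of Kcnq1 was covered. The position that the exon column assigns to it, 150457193, is intronic in GENCODE, lists the base A for both strains and had 1 read counted for each allele in the DxB female pool. Since 1 base cannot tell the alleles apart, these 2 reads carry no information on imbalance. The remaining positions, 150527036 (a), 150527075 (b), 150527116 (c) and 150562131 (d), lie 234 to 269 kb from the start of the gene, with a, b and c at 17499 to 17579 bp from the nearest exon.

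All 7 informative reads of Kcnq1 carried the D base, and all came from BxD pools. The BxD female pool had 1 D read at SNP a, 2 at b and 1 at c, and the BxD male pool had 1 each at b, c and d. Neither DxB pool had a read, which at their depth allows up to 6.60 RPM of the counted intronic reads in the DxB female and 8.78 RPM in the DxB male pool (upper 95% Poisson bounds), above the 5.75 and 5.06 RPM measured in the BxD female and BxD male pools. The D allele was paternal in both pools with reads, so strain and parent of origin cannot be told apart at Kcnq1 from the BxD pools alone. SNPs a, b and c lie near each other, so 1 fragment may have been counted at more than 1 of them.

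None of the 7 reads carried the B base, and with 3 reads as the most that a count of 0 allows, D was at least 2.33-fold higher than B, before any fragment counted more than 1 time is allowed for. By strain the adjusted p of edgeR was 0.0772, and by parent of origin it was 0.99995, while 0.0314% of genes with intronic SNPs were called by parent. In the fit with both factors the strain log2 ratio was 3.50 ± 1.88 and the parental one -3.44 ± 1.90 (-7.16 to 0.27). With the labels followed, the same 7 reads became 3 maternal and 4 paternal and the parental ratio became -0.04 ± 1.56. Of the intronic fits of Nap1l4 and Kcnq1, 0 of 2 were called by parent of origin with edgeR, where 1 passed an unadjusted p under 0.05, and 0 of 2 passed that level with DESeq2. Over all 9561 genes with intronic SNPs, 120 passed it with edgeR and 50 with DESeq2. The RNA is not stated to keep its strand, so reads of Kcnq1 and of an antisense RNA within it cannot be told apart by strand. By position, SNPs a to d lie outside the interval that the exon column gives to position 150457193 (150399015 to 150482452, 83437 bp). Whether an antisense RNA reaches them was not tested.

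**Figure D3:**
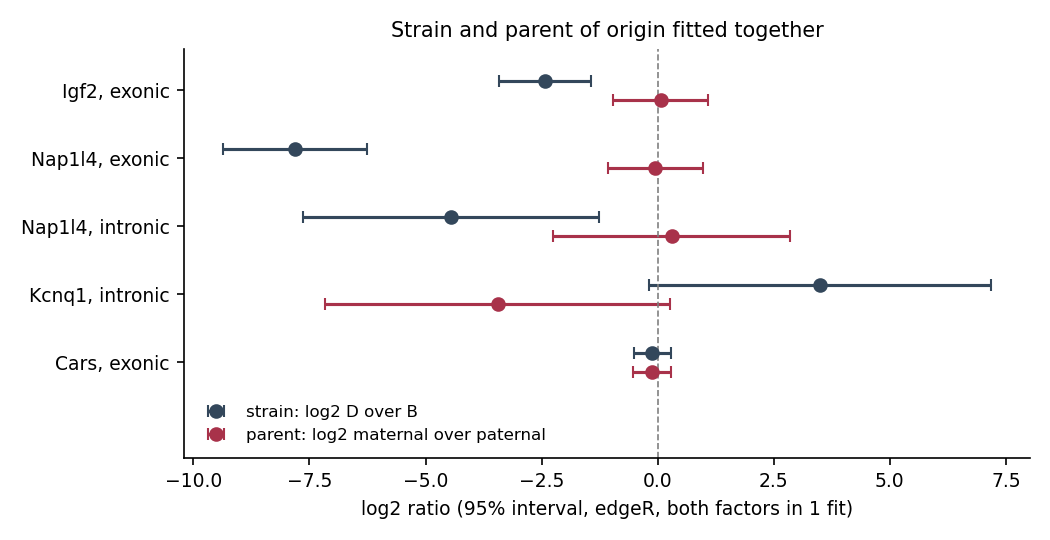
Log2 ratios of D to B (strain) and of maternal to paternal (parent), fitted together with edgeR without a term for the pool, with 95% intervals on the horizontal axis. The strain intervals of Igf2 and Nap1l4 lie below 0 and their parental intervals span 0, and at Kcnq1 both span 0. The strain values of Nap1l4 and both values of Kcnq1 rest on an allele with no read and depend on the prior count, so they are not bounds. The parental values of Nap1l4 compare only the B reads of BxD with those of DxB and are not bounds on parent of origin.

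The stretch from the end of Igf2 to the start of Nap1l4 spans 898 kb and is sparsely covered. It holds 14 protein-coding genes, of which 4 had a covered SNP, at 10 positions. Of 835 stretches of that length with at least 10 protein-coding genes, the median held 109 covered SNPs and 223 (26.7%) held as few or fewer.

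Of 26 further genes listed for distal chromosome 7, among them H19, Cdkn1c, Phlda2 and Ascl2, only 4 had a read at a counted SNP and 2 had at least 10 reads. By strain and by parent of origin 0 were called with edgeR and with DESeq2, where edgeR called 17.7% of all genes on exonic and 11.3% on intronic SNPs by strain, and 0.0501% and 0.0314% by parent, so that a count of 0 in 4 tests is near the background. Of the 1 exonic and 3 intronic tests by strain, 1 passed an unadjusted p under 0.05 with edgeR and none with DESeq2, and by parent none passed with either. With edgeR, 2148 of 7990 genes on exonic and 1930 of 9561 on intronic SNPs passed that level by strain. By parent 44 and 120 did.

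Cars, which encodes the cytoplasmic cysteinyl-tRNA synthetase, is the neighbour of Nap1l4 and had 1 counted SNP. The BxD female pool had 86 B and 84 D reads, and the BxD male pool had 76 B and 65 D reads. The DxB female pool had 70 B and 57 D reads, and the DxB male pool had 53 B and 39 D reads. Both alleles were read about equally in both crosses, with 53.8% B in all (49.5 to 58.0%). The log2 ratio of D to B was -0.10 ± 0.17 (edgeR adjusted p = 0.760), and the parental ratio with strain in the fit was -0.12 ± 0.18 (-0.52 to 0.29). The strain interval of Cars (-0.47 to 0.26) does not overlap those of Igf2 or Nap1l4.

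Lsp1, which encodes a cytoskeletal protein of leukocytes, had 10 B and 3 D reads at intronic SNPs (log2 ratio of D to B -1.35 ± 1.04, edgeR adjusted p = 0.500). By parent, 11 of these reads were maternal and 2 paternal. With strain in the fit the parental log2 ratio was 2.10 ± 1.20 (-0.24 to 4.44), and it was not called. Slc22a18, a transporter gene of the Kcnq1 domain, had 6 D and 0 B reads at 1 intronic SNP. It was named after its values were seen. Its reads came from both crosses, 3 from the BxD female, 2 from the DxB female and 1 from the DxB male pool, so that 3 were maternal and 3 paternal (edgeR adjusted p by strain 0.105).

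**Figure D4:**
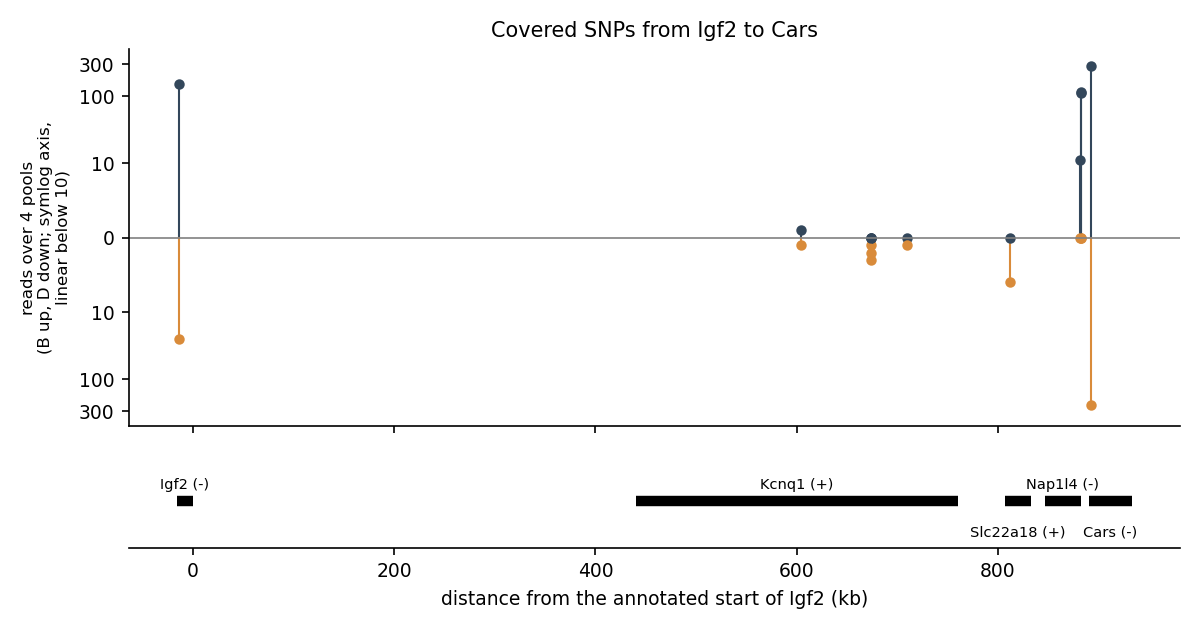
Reads over the 4 pools at each covered SNP from Igf2 to Cars, with B reads drawn upwards and D reads downwards on a symmetric log axis that is linear below 10, against the distance in kb from the annotated start of Igf2. Black bars below are gene spans with their strand. B-rich SNPs lie at Igf2 and Nap1l4, D-only SNPs of under 10 reads lie in Kcnq1 and Slc22a18, and Cars is read from both alleles.

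Genes that act with Igf2 were followed from a list of 18, namely the ligand Igf1, the receptors, their substrates, the IGF binding proteins, the Igf2 mRNA binding proteins and proteases that cleave binding proteins. Of these 11 had a read at a counted SNP, and 8 had exonic reads. By strain 3 of the 8 were called with edgeR, all with B higher, where 17.7% of all genes were called and 12.9% with B higher. The median log2 ratio of D to B over the 8 was -0.23, against -0.02 over all genes. By parent of origin 0 of the 8 were called with edgeR or DESeq2, where edgeR called 0.0501% of all genes. An unadjusted p under 0.05 was passed by 0 of the 8 with either, where 44 of 7990 genes passed it with edgeR and 23 with DESeq2. A count of 0 in 8 is near that background.

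Igf1, the other ligand, had 28 B and 24 D reads (log2 ratio -0.10 ± 0.47, edgeR adjusted p = 0.938), and at intronic SNPs 2 B and 10 D reads (2.19 ± 1.11, edgeR adjusted p = 0.241). Igf1r, the receptor that binds both ligands, had 44 B and 31 D reads at its exonic SNP, with a log2 ratio of -0.35 ± 0.47 (edgeR adjusted p = 0.706). Neither was called, and whether their ratios differ from that of Igf2 was not tested.

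The 3 called genes were the binding proteins Igfbp3 and Igfbp7 and the serine protease Htra1. Igfbp3, the main carrier of IGFs in serum, had 424 B and 4 D reads (-6.41 ± 0.61, edgeR adjusted p = 1.07e-05), with a B share between 98.7 and 100% in single pools. Igfbp7, a related secreted protein of low affinity for IGFs, had 18920 B and 10 D reads (-10.67 ± 0.32, edgeR adjusted p = 1.10e-09). With no filter on close SNPs its log2 ratio was -2.0, because a SNP that lists the base C for B and D alike then adds 7696 reads to each allele. Htra1 had 374 B and 2 D reads in the BxD female, 302 and 6 in the BxD male, 448 and 6 in the DxB female and 327 and 4 in the DxB male pool (-6.17 ± 0.27, edgeR adjusted p = 1.55e-08). The exonic SNPs of these genes were read almost only as B in both crosses. At intronic SNPs, however, Igfbp7 had 18 B and 6 D reads (-1.43 ± 0.80, edgeR adjusted p = 0.311). The limit given for Nap1l4 holds for these exonic SNPs as well.

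The other binding proteins were read from both alleles. Igfbp4, which binds and holds back IGFs, had 6538 B and 7350 D reads and a B share between 45.9 and 48.0% in single pools. It was not called in the main test (0.30 ± 0.13, edgeR adjusted p = 0.153) and was called with the pool as a block (edgeR adjusted p = 0.00229). Igfbp5 had 3719 B and 3308 D reads (-0.04 ± 0.18, edgeR adjusted p = 0.931), of which 1 of 5 SNPs lists the same base for both strains. Igfbp2 had 121 B and 129 D reads (0.21 ± 0.45, edgeR adjusted p = 0.822), with the BxD female pool at 30.0% B. Among the RNA binding proteins, Igf2bp3 had intronic reads alone, 20 B and 16 D. Over the 8 genes with intronic reads 0 were called by strain with edgeR or DESeq2, where edgeR called 11.3% of all genes. Of the 8, 2 passed an unadjusted p under 0.05 with edgeR and 1 with DESeq2, where 1930 and 1332 of 9561 genes did.

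**Figure D5:**
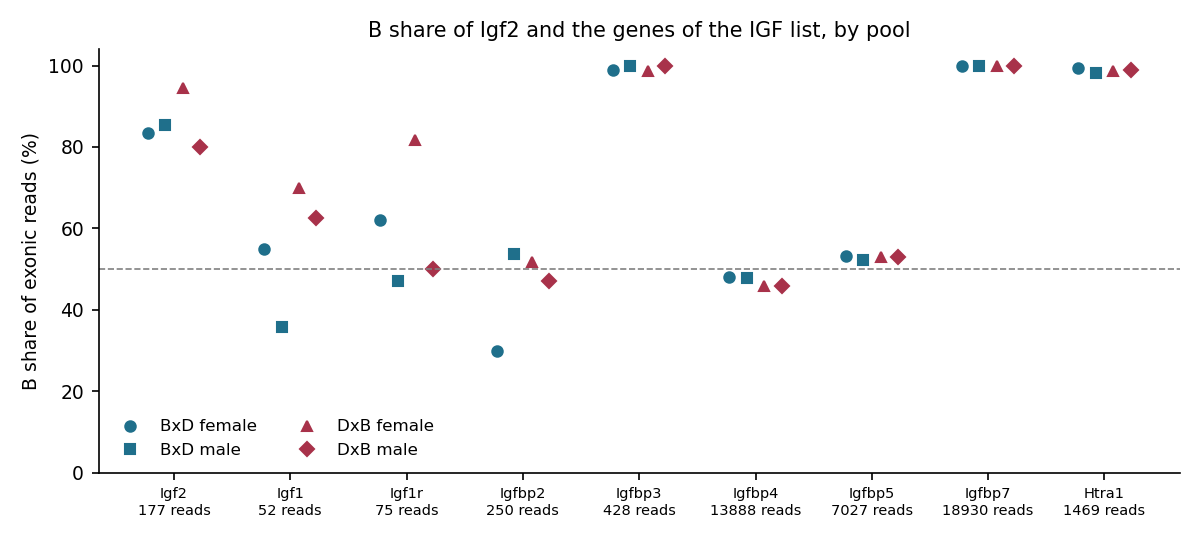
B share of exonic reads (%, vertical axis from 0) in each pool for Igf2 and the 8 genes of the list with exonic reads, with the total number of reads under each name, circles and squares for BxD and triangles and diamonds for DxB. Igfbp3, Igfbp7 and Htra1 lie near 100% in all pools, Igf2 lies between 80 and 94.4%, and Igfbp4 lies below the dashed line at 50%.

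The genes whose B shares were most like those of Igf2 were Hba-a2 on chromosome 11, Ugdh on chromosome 5 and Usp35 on chromosome 7, among 4889 genes with at least 20 counted exonic reads in each pool. Their root mean square differences from Igf2 over the 4 pools were 2.80, 2.87 and 2.93 percentage points. Hba-a2 encodes an alpha globin and has a near-identical copy, so its reads are uncertain. Nap1l4 shared a B share of 100% in every pool with 134 genes, which cannot be ordered.

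The imprinted RNA Meg3 shows what parental expression looked like at a depth close to that of Nap1l4 and below that of Igf2. It had 112 maternal reads and 1 paternal read, 99.1% maternal (95.2 to 99.8%), with a log2 ratio of 6.20 ± 0.71 (edgeR adjusted p = 0.0394). The call was lost with the pool as a block (log2 ratio 6.33, edgeR adjusted p = 1.0), a fit in which 0 of 7990 genes were called by parent and 37 passed an unadjusted p under 0.05. Meg3 had 38 B and 0 D reads in the BxD female, 32 and 0 in the BxD male, 1 and 25 in the DxB female and 0 and 17 in the DxB male pool. The maternal shares of Igf2 and Nap1l4 over all pools, 61.0% and 53.4%, have intervals below that of Meg3. A paternally expressed gene would lie below it too, and these sums follow the depth of each cross, so they cannot decide on parent of origin. By pool, the allele with more reads changed strain with the cross at Meg3 and was B in every pool at Igf2 and Nap1l4. The tissue label was checked with Lpl and Lep, genes of adipocytes, which had 126857 to 197602 and 4155 to 10804 counted reads per pool, while Adipoq, Plin1, Fabp4 and Cd36 had no read at a counted SNP. The pools held 3353668 to 4254813 counted exonic reads and 420270 to 695774 intronic ones, and the B to D ratio of exonic reads was 1.13 to 1.19 in all 4 pools.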

How the data were processed

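The authors deposited raw counts of reads per SNP and allele for each pool, without normalization. To make these counts the authors aligned the mates as single reads to mm9 with mrsFAST (up to 3 mismatches; the methods state that D variants were masked, and the supplement leaves this uncertain), used TopHat (version 1 in the submitters' processing notes, which also name CASAVA) for reads left over, and kept reads with 1 alignment. Removal of PCR copies is not described, so intervals cover counting error only.

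Positions listed for several genes were counted for the first, and of exonic SNPs within 18 bp only the first was kept, leaving 44210 exonic and 219363 intronic SNPs. B and D reads of the 4 pools were summed per gene and treated as 8 libraries. Tests used R 4.3.3 and edgeR 4.0.16 (TMM, quasi-likelihood, Benjamini-Hochberg, threshold 0.05), with DESeq2 1.42.0 as an alternative. The SE was taken as the size of the log2 ratio over the root of its F statistic. Both alleles of a pool come from 1 RNA sample, and their deviations correlated at 0.653, 0.154, 0.669 and 0.114 over 4614 genes in the BxD female, BxD male, DxB female and DxB male pools, so the pool was also fitted as a block. Shares have 95% Wilson intervals, rates have exact Poisson intervals, and a count of 0 was taken to allow 3 reads. Figures used matplotlib 3.10.9.

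The members and both gene lists were chosen with earlier results of these data known. Named are the 3 members, the genes of both lists with at least 10 exonic or intronic reads, and the 3 genes of most like B shares. Annotation came from GENCODE M1 on NCBIM37, where Kcnq1ot1 has no entry, so the Kcnq1 SNPs were not sorted into those inside and outside it.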

Additional observations from a re-analysis of the deposited data

Results flagged for a closer look

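In the intron of Lsp1 the DxB male pool had a B share of 25.0%, while the other 3 pools had 100%, and 1 pool standing apart from the others is what marks it. It rests on 13 reads in all, and the 3 D reads of the DxB male pool were maternal. The Kcnq1 position at which 1 base is listed for B and D alike had 0.486 RPM of the counted exonic reads in the DxB female pool and 0 in the others, which marks that pool in the same way. It rests on 2 reads. The cutoff used would mark about 1 in 20 groups of 4 normally distributed values. Counts as low as these need not keep to that rate. At the Kcnq1 position, having reads in 1 pool alone was enough to fix the mark.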

How the results depend on the processing

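With 4 pools, 1 for each cross and sex, no pool has a replicate, and the parental results depend on which identity of the disputed pools is right. Leaving out a pool kept Igf2 called by strain (log2 ratio -2.60 to -2.19, adjusted p 0.00487 to 0.0108), and Nap1l4 exonic was called under each of 15 alternatives. Without both disputed pools Igf2 was at -2.07 and not called, with 2 pools left. The intronic call of Nap1l4 was lost with the pool as a block (-4.46), with DESeq2 (-3.79), without both disputed pools (-4.62) and without any single pool (-4.77 to -4.28). Genes called by strain on exonic SNPs numbered 1415 (387 with D higher, 1028 with B higher), 2175 with the pool as a block (879 and 1296), 694 without both disputed pools and 1049 to 1184 without a single pool, and with 1 library size per pool the split was 236 and 1172. On intronic SNPs 1082 became 473 without both disputed pools. By parent of origin 4 exonic calls became 0 with the block, without both disputed pools or by the labels, 2 with no filter on close SNPs or with exons taken from the annotation column, 7 with DESeq2 or with strain as a covariate, and 0 to 1 without a single pool, and 3 intronic calls became 0 with the block or by the labels, 11 with strain as a covariate and 2 to 3 without a single pool. None of these alternatives called a member by parent. The parental log2 ratios, none of them called, changed sign for Igf2 (0.49, -0.0569 with the block, -0.22 to 1.37 without a single pool), for exonic Nap1l4 (-0.02, 0.0686 with the block, 0.0468 with 1 library size per pool, 0.0428 with no filter on close SNPs, -1.32 to 0.99 without a single pool), for intronic Nap1l4 (0.53, -0.33 without both disputed pools, -0.90 by the labels, -0.60 to 2.34 without a single pool) and for the position of Kcnq1 with 1 listed base (0.01, -5.9e-05 with DESeq2, -2.46 with intronic reads added, -0.0173 by the labels). The block changed no other call of a member. Apart from settings that test fewer SNPs or pools, the cause of these changes was not tested. Igf2 has no SNP when exons are taken from the annotation column, the minimum of 10 counts drops Kcnq1, removal of the most read SNP left no exonic SNP of Igf2 or Nap1l4, and the split of Kcnq1 by its antisense RNA was not run. Depth limits Kcnq1 most, with 7 informative reads.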
